A study of Mus musculus with 24 samples.

Results

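The genes described here encode complex II, complex III, cytochrome c and the ATP synthase, the nuclear-encoded part of the mitochondrial respiratory chain outside complexes I and IV. They were taken from the deposited table by symbol: the 4 subunits of succinate dehydrogenase (Sdha to Sdhd), every gene whose symbol starts with Uqcr or Atp5, and Cyc1, Cycs and Atpif1. The table held 32 of them among 15323 genes, 31 protein-coding genes and the processed pseudogene Atp5l-ps2. The c-ring gene Atp5g2, the second locus annotated as Atp5o and 6 pseudogenes that match the same rule were not analysed here.

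RNA was sequenced from liver (median lobe) and heart (left ventricle) of 10-week-old male mice of 4 genotypes, written as nuclear genome, colon, mitochondrial DNA (mtDNA). The parental strains BL/6J:C57 and NZB:NZB have both genomes from C57BL/6 or both from NZB. In the conplastic lines, BL/6J:NZB and NZB:C57, 10 generations of backcrossing joined the nucleus of one strain to the mtDNA of the other. Each genotype gave 12 males, and RNA of 4 animals was mixed into each of 3 pools per tissue, so n = 3 pools throughout, and tests weigh a difference against the spread of pools. Whether the liver pools and the heart pools were mixed from the same animals is not stated. The BL/6J pools are titled mix and the NZB pools rep, so handling that goes with the title and the nuclear genome cannot be told apart.

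Complex II oxidises succinate and passes the electrons to coenzyme Q, and it is the only respiratory complex whose subunits all come from nuclear genes. Complex III moves electrons from coenzyme Q to cytochrome c while pumping protons, and its cytochrome b is encoded by mtDNA. The ATP synthase lets protons flow back through a ring of c subunits in its membrane part, which turns the central stalk inside the catalytic F1 head. Subunits a and A6L of the membrane part come from mtDNA and meet the small nuclear subunits e, f and g, which also join the enzyme into dimers that bend the cristae. Heart muscle is rich in these complexes, and the inhibitory factor Atpif1 blocks ATP hydrolysis by the F1 head when the proton gradient falls.

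Nuclear genes of the respiratory chain are classic targets of NRF1, of the ETS factor GABPA and of the estrogen-related receptors, and the promoter windows were searched for their letters. RefSeq promoter windows (build GRCm38.p6, from 250 bases before to 50 bases after the start site) were matched for 22 of the 32 genes. The NRF1 core GCATGCGC, searched on both strands, was in 6 of these windows (27.3%: Sdhb, Uqcrc1, Uqcr11, Cycs, Atp5k and Atp5l), against 3.05% of 27025 genes with a window and 3.94% of the 17492 protein-coding ones. The ETS letters CCGGAAG were in 9 windows (40.9%), against 9.93% of all and 12.9% of protein-coding genes. The half-site of the estrogen-related receptors, TNAAGGTCA, was in those of Sdhd and Atp5g3 (9.09%, against 1.43% of all and 1.19% of protein-coding genes). The YY1 core AAGATGGC was in those of Atp5j and Atp5j2 (9.09%, against 3.19% and 3.57%). The CRE TGACGTCA was in those of Uqcrfs1 and Cycs (9.09%, against 2.03% and 2.54%). The SP1 box GGGCGG was in 7 windows (31.8%), below the 38.2% of all and 49.2% of protein-coding genes. These are matches of letters, not measured binding. The windows of Atp5l, which encodes the g subunit and gave the largest difference between BL/6J hearts, and of Cycs, which encodes cytochrome c, are printed, as far as they lie upstream of annotated exons, because both hold the NRF1 core. They stand on the minus strand at chr9:44920752-44920992 and chr6:50566570-50566642, and capitals mark the NRF1 core and, in Atp5l only, the ETS letters on the opposite strand.
Atp5l: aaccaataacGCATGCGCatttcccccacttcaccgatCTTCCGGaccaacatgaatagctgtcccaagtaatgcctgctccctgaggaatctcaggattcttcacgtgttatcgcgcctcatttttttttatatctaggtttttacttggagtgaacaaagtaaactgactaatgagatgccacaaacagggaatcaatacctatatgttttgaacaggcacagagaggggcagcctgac
Cycs: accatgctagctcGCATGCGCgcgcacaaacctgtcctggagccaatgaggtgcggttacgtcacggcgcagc

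The values are the authors' normalised values, from which whole reads per gene were recovered. Livers held 7294525 to 34974268 reads and hearts 3714278 to 12949956. Among the livers the 32 genes took 0.5003 to 0.7604% of the reads. In the hearts the share was 3.207 to 4.184% except in NZB:C57, where it was 2.065 to 2.144%. The 3 NZB:C57 hearts stood apart from all other hearts. The summed value of 8 cardiomyocyte markers was 232300 to 235200 there, against 26910 to 28460 in NZB:NZB and 37210 to 41660 in BL/6J hearts, and the 20 most abundant genes took 33.42 to 34.08% of the reads against 11.49 to 14.51%. Scaling by library totals in place of the authors' normalisation moved the median of all genes by -0.65 on the log2 scale between NZB:C57 and NZB:NZB hearts and by -0.53 between NZB:C57 and BL/6J:C57 hearts. Values are on the authors' scale unless library totals are named. Of the NZB-nuclear livers, 5 held cardiomyocyte marker RNA (summed value 43.58 to 150.2), while NZB:C57 liver 1 (0.5487) and the BL/6J livers (0.3347 to 1.08) held almost none. The part of these transcripts in the results was not tested. In bulk RNA, fewer cells of a type and less RNA per cell cannot be told apart. For 11 of the genes at least 10% of the 31-base words in their transcripts also occur in other genes, among them Uqcrb (32.43%), Cycs (29.17%) and Atp5h (25.39%), so the division of reads between them and their copies is uncertain.

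Markers of other cell types moved as well. In NZB:C57 hearts the sum of 6 endothelial markers was 1242 to 1429 (706.3 to 874.1 in the other hearts) and that of 4 atrial markers 4979 to 8975 (318 to 901.4), and hepatocyte markers stayed at 40.09 to 248.5 in all hearts against at least 129500 in livers. In NZB:C57 against NZB:NZB livers the called markers with the smallest p were lower for endothelium (Cdh5 -1.28, Kdr -1.38) and stellate cells (Reln -1.59, Lum -1.04), lower for Tagln (-0.70), Myl4 (-1.27) and Adgre1 (-1.08), and higher for Apoa1 (0.63), Serpina1a (0.44) and Cd5l (1.19) (log2 differences). In the hearts of the same strains they were higher for endothelium (Kdr 0.90, Cdh5 0.78), fibroblasts (Dcn 0.81, Pdgfra 0.68), smooth muscle (Cnn1 1.90, Tagln 0.54), atrium (Nppa 3.56, Myl7 3.22), skeletal muscle (Acta1 1.63, Tnni2 1.97), Adgre1 (0.64) and Hbb-bt (1.16). Under library totals Apoa1 and Serpina1a were not called in liver (0.39 and 0.20). In these hearts Kdr (0.20), Cnn1 (1.47), Nppa (2.86), Myl7 (2.52), Acta1 (0.93) and Tnni2 (1.56) were still higher, and Cdh5 (0.08), Dcn (0.10), Pdgfra (-0.02), Tagln (-0.13), Adgre1 (-0.03) and Hbb-bt (0.46) were not called. Their part in the members' values was not tested.

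All 32 genes were higher in heart than in liver in each of the 4 genotypes. Levels and differences were tested with limma on log2(value + 1), and a gene was called at an adjusted p below 0.05 over all genes tested. Heart above liver was called for 37.3% of 14968 genes in BL/6J:C57, 37.5% in BL/6J:NZB, 37.8% in NZB:NZB and 39.6% in NZB:C57. The median log2 difference of the 32 genes was 1.22, 1.53, 1.36 and 1.45 in this order, while the median of all genes lay between -0.03 and 0.00. Under library totals all 32 were still higher in every genotype, with medians of 1.86 to 2.43 against all-gene medians of 0.31 to 0.74.

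The largest difference in BL/6J:C57 was that of Atpif1, at 16.5, 11.9 and 11.7 in the livers and 65.0, 66.3 and 71.1 in the hearts, a log2 difference of 2.27 ± 0.12 (SE). Atp5g1, one of the genes for the identical c subunits of the ring, read 274, 212 and 168 in liver and 953, 879 and 886 in heart (2.08 ± 0.12). Its partner Atp5g3, which encodes the same mature protein, read 624, 513 and 493 in liver and 1263, 1251 and 1281 in heart, a difference of 1.23 ± 0.11. Atp5g1 made up 24.25 to 32.84% of the summed value of both genes in the 12 livers and 37.57 to 43.0% in the 12 hearts, with no overlap between the tissues. These values are not divided by length, so they are not shares of transcripts. The principal transcript of Atp5g1 has 4715 bases and that of Atp5g3 723, and the part of length was not tested. The beta and alpha subunits of the F1 head followed, Atp5b (beta) with 1.84 ± 0.08 and Atp5a1 (alpha) with 1.82 ± 0.08.

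At the low end in BL/6J:C57 stood Uqcrq, an accessory subunit of complex III, at 319, 251 and 175 in liver and 325, 343 and 306 in heart. Its difference of 0.43 ± 0.15 was called (adjusted p = 0.0111, limma), although the groups overlap, and without BL/6J:C57 liver 3 it shrank to 0.19 and was not called. Atp5l-ps2 (0.56 ± 0.17), Atp5e, the epsilon subunit (0.61 ± 0.13), and Uqcr11, an accessory subunit of complex III (0.71 ± 0.15), came next on the log2(value + 1) scale. The +1 shrinks the difference of Atp5l-ps2, which read 0.881, 1.06 and 0.796 in liver and 1.46, 2.38 and 1.66 in heart: edgeR gave 0.97 for it, above Atp5e (0.58) and Uqcr11 (0.66). Within complex III the core protein Uqcrc1 differed by 1.77 ± 0.09 and the Rieske protein Uqcrfs1 by 1.39 ± 0.08, more than any of the small accessory subunits Uqcrb, Uqcrq, Uqcrh, Uqcr10 and Uqcr11 (from 0.43 for Uqcrq upwards). In complex II the differences were 1.40 ± 0.10 for the flavoprotein Sdha, 1.42 ± 0.10 for the iron-sulfur protein Sdhb, and 0.92 ± 0.07 and 0.95 ± 0.08 for the membrane anchors Sdhc and Sdhd. Cycs read 124, 89.5 and 70.7 in liver and 263, 345 and 366 in heart, a difference of 1.79 ± 0.17. These ranks are those of BL/6J:C57. With edgeR, Atp5e differed by 1.10 in BL/6J:NZB and 1.30 in NZB:NZB, and Uqcr11 by 1.19 and 1.35. In BL/6J:NZB Uqcrfs1 (1.59) stayed above the accessory subunits, with Uqcrh (1.56) nearest. Pearson's r with log2 length of the principal transcript was 0.42 in BL/6J:C57 and 0.0807 to 0.135 in the other genotypes. The part of length was not tested.

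**Figure D1:**
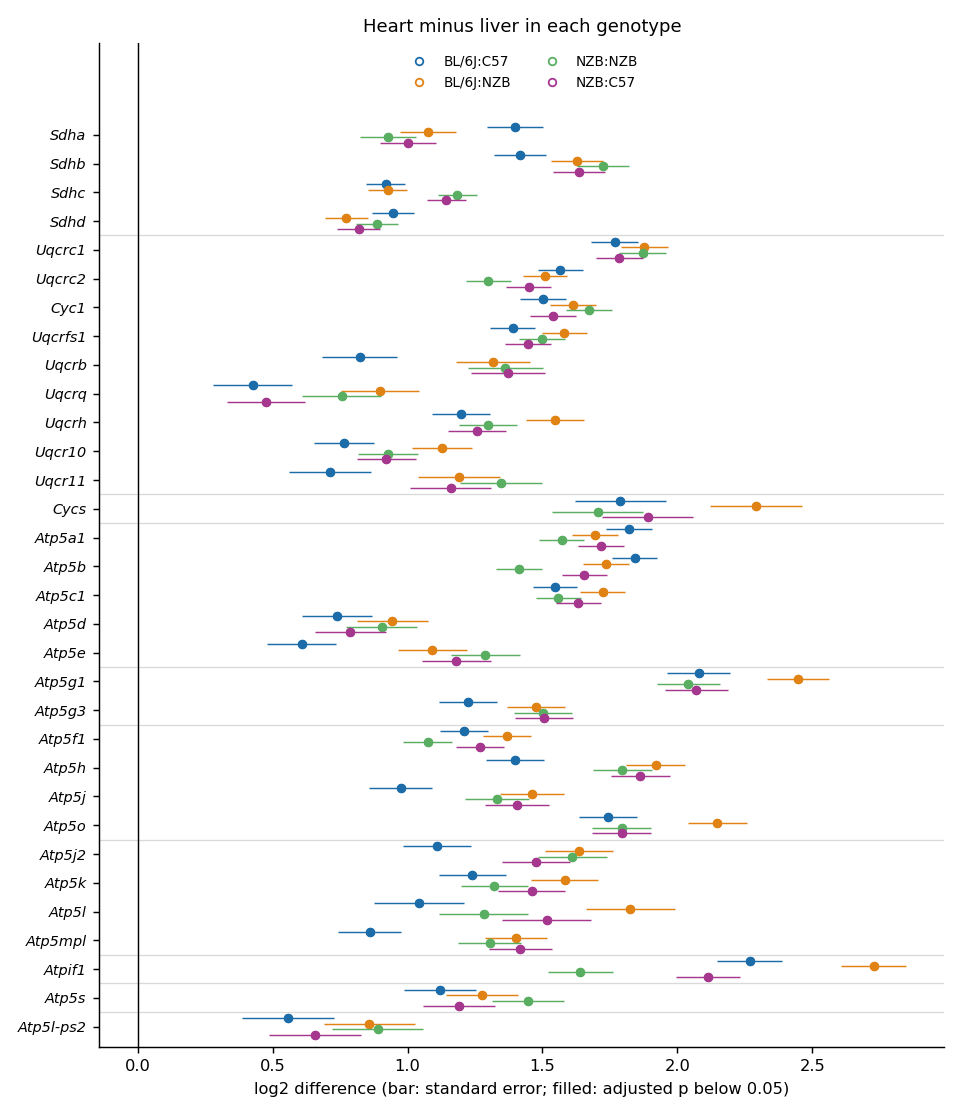
Log2 difference of heart minus liver (x axis) for the 32 genes (y axis, grouped by complex) in each of the 4 genotypes; bars are standard errors and filled points have an adjusted p below 0.05 (limma). All points lie to the right of 0, from 0.43 for Uqcrq in BL/6J:C57 to 2.73 for Atpif1 in BL/6J:NZB.

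Divided by the length of the annotated exons, the levels in BL/6J:C57 hearts were highest for Atp5a1 (1421 ± 78.9 per kilobase, SD), Atp5b (1224 ± 66.2) and Atp5g3 (580.15 ± 6.92). With the longest transcript as length, Atp5b (2708) passed Atp5a1 (1666) and Atp5g3 (1468), so the same 3 genes led under both lengths but in another order. Lowest under both were Atp5l-ps2 (5.84 per kilobase of exon) and Atp5s (9.05), the latter encoding coupling factor B.

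NZB mtDNA on the BL/6J nucleus went with higher Atp5l and Atpif1 in the heart. Atp5l read 448, 449 and 372 in BL/6J:C57 hearts and 488, 605 and 661 in BL/6J:NZB hearts. Atpif1 read 65.0, 66.3 and 71.1 in the former and 80.3, 89.7 and 99.4 in the latter. For both genes every conplastic pool was above every parental pool. The log2 differences were 0.46 ± 0.10 (SE; adjusted p = 0.0455, limma) and 0.40 ± 0.09 (adjusted p = 0.044). These 2 genes were all that was called of the 32, against 0.427% of 13803 genes called higher. The calls depended on single libraries: no member was called without any one of BL/6J:C57 hearts 1 or 3 or BL/6J:NZB hearts 2 or 3, while 8 were called without BL/6J:NZB heart 1 and 4 with edgeR. The adjusted p over the alternatives ran from 0.0106 to 0.196 for Atp5l and from 0.02 to 0.196 for Atpif1, and it was 0.0703 and 0.0612 without the NZB:C57 libraries. In the same comparison Ryr2, the calcium release channel of heart muscle (-0.55), and Acta2 (-0.55) were lower, Egfl7 of endothelium (0.37) was higher, and the 4 atrial markers differed by 0.58 to 0.73 without a call; their part in the result was not tested.

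**Figure D2:**
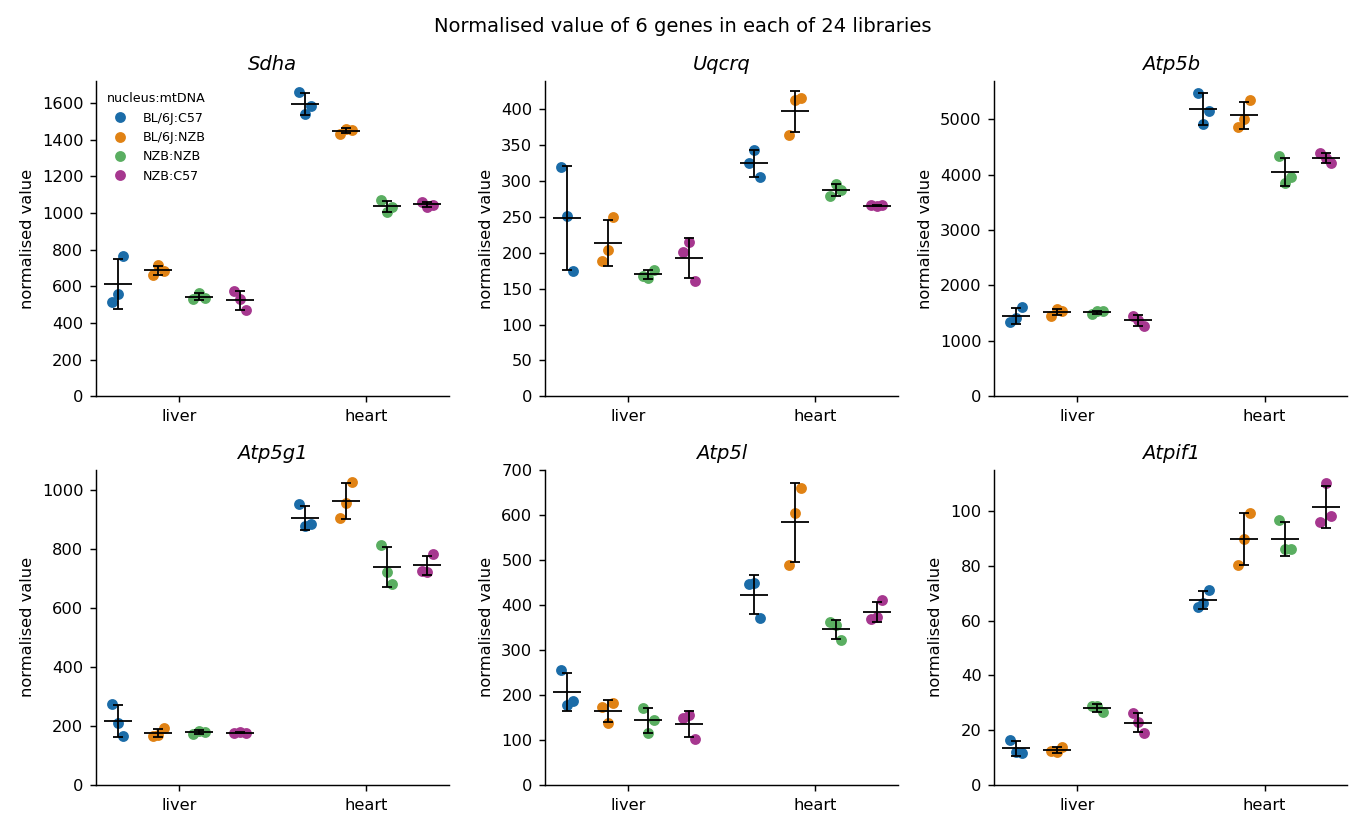
Normalised value (y axis, from 0) of 6 genes in each library by tissue and genotype; points are pools, and black lines are the mean and SD of 3 pools. Sdha is lower in all 6 NZB-nuclear hearts, Atp5l is highest in the BL/6J:NZB hearts, and Atpif1 is higher in all 6 NZB-nuclear livers than in any BL/6J liver.

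The median log2 difference between BL/6J:NZB and BL/6J:C57 hearts was 0.13 over the 32 genes and 0.00 over all genes. By group, with no test between groups, it was 0.36 for the 4 small membrane subunits of the ATP synthase (Atp5j2, Atp5k, Atp5l and Atp5mpl), 0.22 for the 4 stalk subunits (Atp5f1, Atp5h, Atp5j and Atp5o), 0.20 for the 9 complex III genes, 0.00 for the 5 genes of the F1 head (-0.11 to 0.29) and -0.04 for complex II. In 13 of the 32 genes every BL/6J:NZB heart was above every BL/6J:C57 heart, and in 2 every one was below, against 9.73% and 11.0% of all genes. Atp5k, the e subunit, was such a gene, at 239, 259 and 254 in the parental and 289, 305 and 372 in the conplastic hearts (0.35 ± 0.09, adjusted p = 0.058, not called). So was Atp5j, the F6 stalk subunit, at 538, 555 and 529 in the former and 597, 684 and 746 in the latter (0.32 ± 0.08). Sdha went the other way, 1660.2, 1540.0 and 1583 against 1433, 1458 and 1454 (-0.14 ± 0.06, adjusted p = 0.287), and Sdhb (0.13), Sdhc (-0.02), Sdhd (-0.07), Atp5g1 (0.09), Atp5g3 (0.14) and Cycs (0.20) were not called either.

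**Figure D3:**
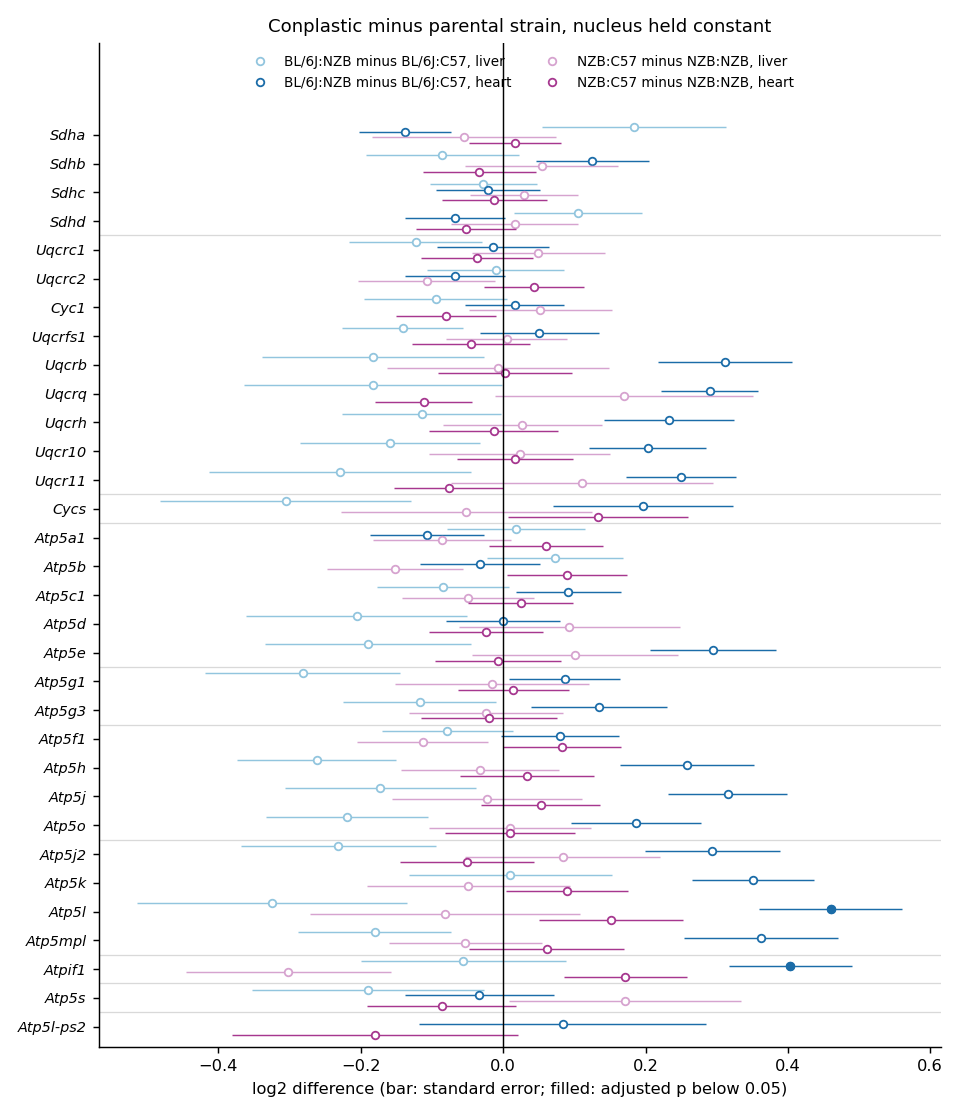
Log2 difference between conplastic and parental strain (x axis) for the 32 genes (y axis, grouped by complex), for both nuclei and tissues; bars are standard errors and filled points have an adjusted p below 0.05 (limma). Filled points are Atp5l and Atpif1 in BL/6J hearts alone, at 0.46 and 0.40.

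The differences between BL/6J hearts went with the length of the transcript. The 11 genes whose principal transcript is shorter than 800 bases all had a positive log2 difference, from 0.14 to 0.46, with a median of 0.29. Of the 15 genes with a principal transcript of 1200 bases or more, 6 were positive and the median was -0.01. Over the 30 genes with such a transcript, Pearson's r between the log2 difference and log2 length was -0.73 and Spearman's rho -0.75; the genes share the same libraries, so these are descriptions. The same was seen outside the set. Among the 916 heart genes with a mean value of at least 100, the 71 short ones had a median of 0.27, the 770 long ones -0.07, and r was -0.62. In the BL/6J livers the short genes were negative instead, with medians of -0.18 for the 11 short members and -0.18 for the 83 short genes at that level, beside -0.09 for the 15 long members and -0.01 for the 1175 long genes. Whether length, or something that moves with it in these libraries, has a part in the differences of Atp5l and Atpif1 was not tested.

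**Figure D4:**
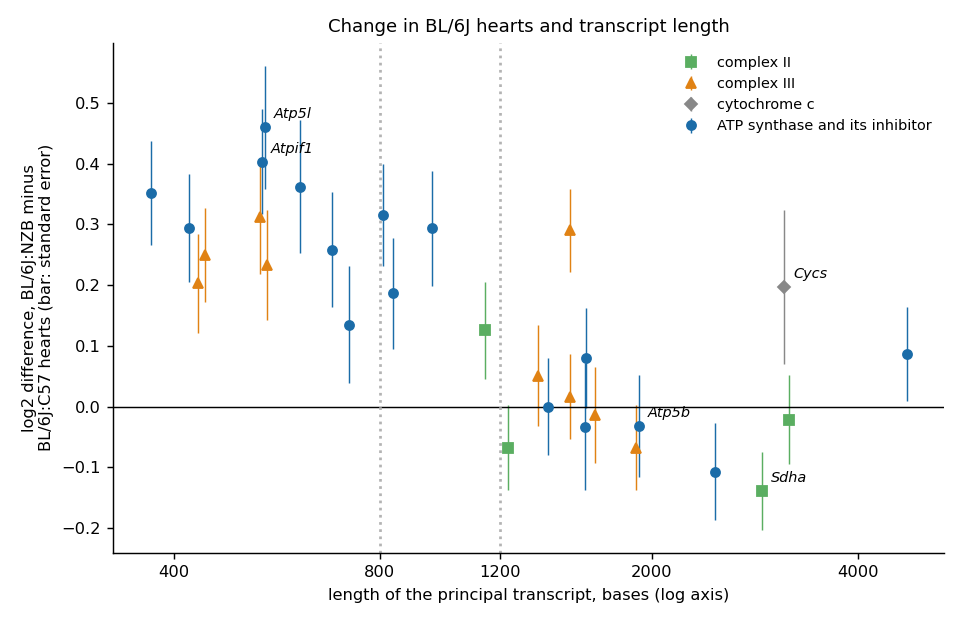
Length of the principal annotated transcript (x axis, log scale, bases) against the log2 difference of BL/6J:NZB minus BL/6J:C57 hearts (y axis; bars are standard errors) for 30 genes, marked by complex; dotted lines stand at 800 and 1200 bases. The 11 genes left of the first line all lie above 0, and the 15 right of the second have a median of -0.01.

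In the livers of the BL/6J nucleus no member was called between NZB and C57 mtDNA, where 0.0076% of 13159 genes were. At an unadjusted p below 0.05 there was 1 member, against 1284 of all 13159 genes. With edgeR 0 members were called as well, and the members' median was -0.14, with 26 of 31 negative. Atp5l-ps2 fell under the filter on low values in liver. Atp5l was 255, 178 and 188 in BL/6J:C57 and 173, 137 and 183 in BL/6J:NZB livers, groups that overlap (-0.32 ± 0.19). Sdha was 515, 557 and 767 in the former and 662, 715 and 682 in the latter, with the widest spread in BL/6J:C57 (0.18 ± 0.13). The difference between tissues, heart change minus liver change, had a median of 0.32 over the members and 0.02 over all genes. At an unadjusted p below 0.05 there were 16 of 32 members, against 2502 of 14968 genes. No member was called with limma or edgeR, against 0.0735% of 14968 genes. Without BL/6J:C57 liver 3, 10 members were called, in a fit whose share of all genes is not given here. The largest was that of Atp5l, 0.78 ± 0.23 (adjusted p = 0.121).

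With the NZB nucleus, exchanging NZB for C57 mtDNA left no member called in either tissue. In liver 8.09% of 13159 genes were called and the members' median was -0.01. In heart 15.9% of 13803 genes were called, while the members' log2 differences lay between -0.18 and 0.17 with a median of 0.01. At an unadjusted p below 0.05 there were 0 members in liver, against 2443 of 13159 genes, and 0 in heart, against 3497 of 13803. With edgeR 0 members were called in both. Atp5b read 4335, 3858 and 3962 in NZB:NZB and 4399, 4306 and 4217 in NZB:C57 hearts, and Sdha 1068, 1005 and 1032 in the former and 1062, 1033 and 1046 in the latter. In the same hearts Mb, the oxygen store of muscle, rose by 3.57 on the log2 scale and Myh6, the cardiac myosin heavy chain, by 3.42 (adjusted p = 1.76e-14 and 1.12e-13). Relative to library totals all 32 members were lower in NZB:C57 hearts, with a median of -0.69 where the median of all genes was -0.65, and in liver 6 were, at -0.25 against -0.22. Under both scalings the members' medians lay close to those of all genes.

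The mtDNA differences of both nuclei were also compared with each other. In heart, NZB minus C57 mtDNA was larger on the BL/6J than on the NZB nucleus for Atpif1 (by 0.58 ± 0.12, adjusted p = 0.00346), Atp5l (0.61 ± 0.14, adjusted p = 0.00745) and Atp5k (0.44 ± 0.12, adjusted p = 0.0234), where Atp5k read 198, 212 and 221 in NZB:NZB and 219, 213 and 238 in NZB:C57 hearts. This comparison called 11.2% of 13803 genes. Under library totals these 3 differences were -0.09, -0.06 and -0.23, none was called, and 26 other members were called lower, with the median of all genes at -0.61. On the authors' scale all 11 short members had a positive difference between nuclei (median 0.29), and the 15 long ones had a median of -0.025. Pearson's r with log2 length was -0.64. The principal transcripts of Atpif1, Atp5l and Atp5k have 539, 544 and 371 bases, and the part of length was not tested. A ratio within a library does not depend on the scaling. Atp5l was 10.05 to 12.37 per 100 of Atp5b in BL/6J:NZB hearts and 7.22 to 9.743 in the other 9 hearts, which shows that the 2 genes changed unequally. The principal transcript of Atp5l has 544 bases and that of Atp5b 1916, and the part of length in this ratio was not tested. In liver no member was called, against 2.49% of 13159 genes, and edgeR called 0 members. No member had an unadjusted p below 0.05, against 1347 of all genes tested.

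The nuclear genomes were compared on either mtDNA. With NZB mtDNA in both, 25 of 32 members were lower in hearts with the NZB nucleus than with the BL/6J nucleus and 0 higher, against 13.6% of 13803 genes called lower and 15.5% called higher. With C57 mtDNA, 16 were lower and 1 higher, against 13.1% and 22.1%. Under library totals the former count was 20 lower and 0 higher, with the median of all genes at 0.11, and the latter 31 lower and 0 higher, with the median of all genes at -0.53: with C57 mtDNA every member but Atpif1 was called lower, from -0.33 for Atp5mpl to -1.20 for Sdha. The median differences were -0.34 and -0.24, where all genes had 0.02 and 0.01. By length as above, the heart medians with NZB mtDNA were -0.33 for short and -0.32 for long members. For all short and long genes with a mean value of at least 100 they were -0.35 and -0.05. With C57 mtDNA they were -0.11 and -0.27 for members, and -0.11 and -0.06 for all such genes. In liver, NZB mtDNA gave 5 lower and 1 higher of 31 members, against 11.9% and 12.9% of 13159 genes, and C57 mtDNA gave 15 lower and 1 higher, against 14.8% and 13.1%. The liver medians were -0.30 and -0.36, with all genes at -0.01 and -0.03. Short and long members had -0.30 and -0.23 with NZB mtDNA, beside -0.25 and -0.05 for all such genes in liver. With C57 mtDNA the liver medians were -0.44 and -0.28, beside -0.39 and 0.01. The part of length in these differences was not tested. The 5 to 15 lower calls in liver depended on the libraries: with NZB mtDNA 3 members were called without BL/6J:NZB liver 3 or without NZB:NZB liver 1, and 18 when the fit held only the 6 libraries compared; with C57 mtDNA 10 were called without BL/6J:C57 liver 1. Without the NZB:C57 libraries in the fit, 23 members in heart and 5 in liver were called with NZB mtDNA. In the 6 hearts with NZB mtDNA, 5 of 8 cardiomyocyte markers were lower too (median -0.42), while 6 of 7 fibroblast markers (sum 1948 to 2241 in NZB:NZB against 797 to 843.1) and 4 of 5 macrophage markers were higher, and 1 of 3 skeletal muscle markers was (1571 to 1920 against 245.3 to 706.7). With C57 mtDNA all 8 cardiomyocyte (median 2.32), 7 fibroblast (2494 to 2743 against 792.3 to 813.8), 6 endothelial, 4 atrial and 3 skeletal muscle markers were higher. In liver the sum of 8 hepatocyte markers was 198700 to 205700 in NZB:NZB against 129500 to 133900 in BL/6J:NZB and 226600 to 254800 in NZB:C57 against 133500 to 149100 in BL/6J:C57, with 2 and 5 markers called higher, and all 8 cardiomyocyte markers were higher on both mtDNAs. The part of these markers in the members' differences was not tested. These comparisons share libraries with the mtDNA comparisons and are not independent of them.

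Within complex II, Sdha was lower in the heart with the NZB nucleus on both mtDNAs. It read 1660.2, 1540.0 and 1583 in BL/6J:C57 and 1433, 1458 and 1454 in BL/6J:NZB hearts. It read 1068, 1005 and 1032 in NZB:NZB and 1062, 1033 and 1046 in NZB:C57 hearts, so the nuclei did not overlap. The log2 differences were -0.48 ± 0.06 with NZB mtDNA (adjusted p = 2.31e-05, limma) and -0.61 ± 0.06 with C57 mtDNA (adjusted p = 6.84e-07; -1.20 under library totals), the smallest p among the members in both. In liver Sdha was not called (-0.34 and -0.21).

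Sdhb was lower with the NZB nucleus in both tissues and on both mtDNAs. In liver it read 319.7, 258 and 259 in BL/6J:C57 pools, 259.7, 245 and 281 in BL/6J:NZB pools, 190.2, 175 and 199.96 in NZB:NZB and 207, 207 and 174 in NZB:C57. These livers separate by nucleus without overlap, at -0.47 ± 0.11 with NZB mtDNA (adjusted p = 0.00539) and -0.50 ± 0.11 with C57 mtDNA (adjusted p = 0.0034). The heart differences were -0.38 and -0.29. Sdhc was lower in liver on both mtDNAs, at 211, 194 and 207 in BL/6J:C57 and 165, 159.9 and 151 in NZB:C57 (-0.36 ± 0.08, adjusted p = 0.00303), and at -0.36 ± 0.08 with NZB mtDNA. It was not called in heart (-0.10 and -0.14), except under library totals with C57 mtDNA (-0.73). Sdhd was called in hearts with C57 mtDNA, -0.23 ± 0.07, and in no other nuclear comparison; there 455, 442 and 457 in BL/6J:C57 stood against 394, 374 and 384 in NZB:C57. Under library totals the differences with C57 mtDNA in the heart were -0.87 for Sdhb and -0.82 for Sdhd.

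**Figure D5:**
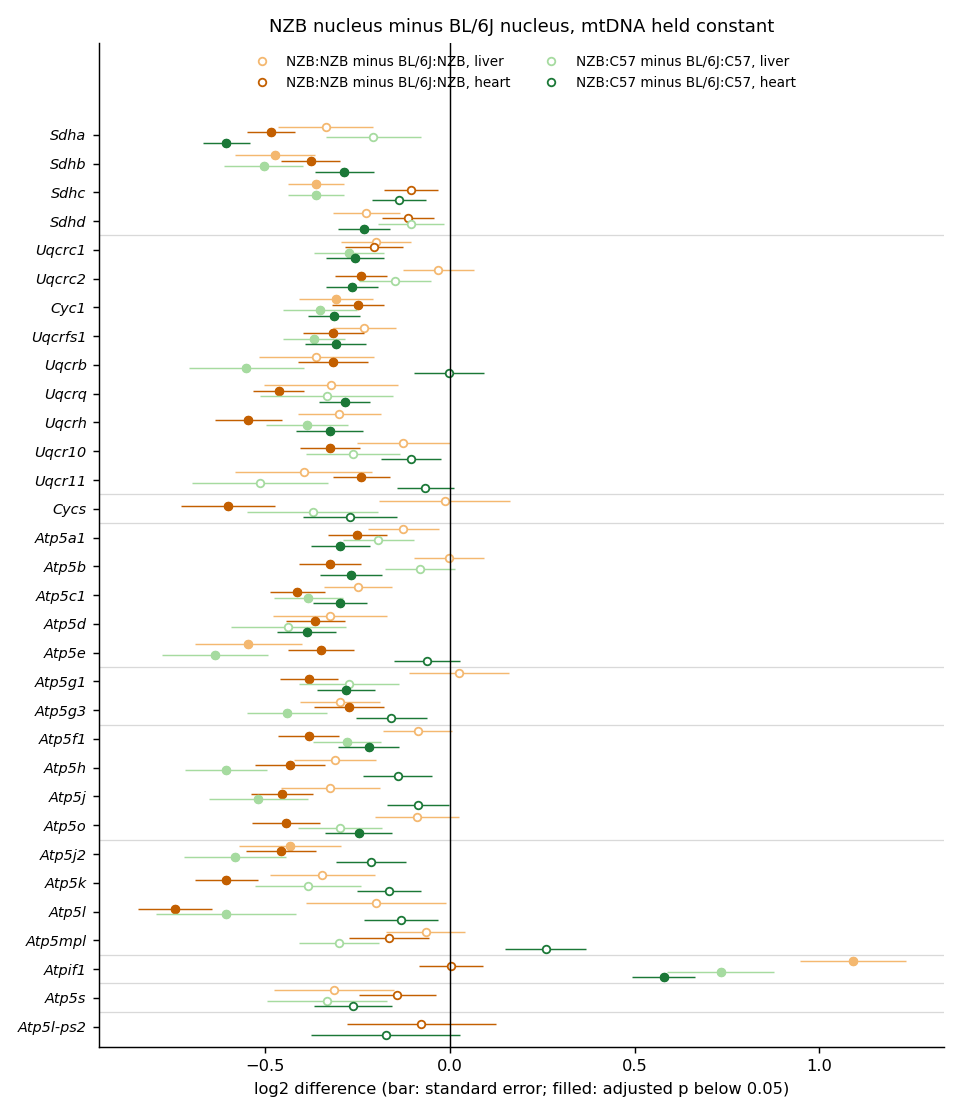
Log2 difference of NZB minus BL/6J nucleus (x axis) for the 32 genes (y axis, grouped by complex) on either mtDNA in liver and heart; bars are standard errors and filled points have an adjusted p below 0.05 (limma). Filled points lie left of 0 for every called gene but Atpif1, which is called to the right in 3 of the 4 comparisons, at 1.09, 0.73 and 0.58, the last of which (hearts with C57 mtDNA) was -0.00447 and not called under library totals.

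In complex III, 8 of 9 genes were lower in NZB:NZB than in BL/6J:NZB hearts and 6 of 9 in NZB:C57 than in BL/6J:C57 hearts (5 and 9 under library totals). Uqcrq read 364, 412 and 416 in BL/6J:NZB and 279, 295 and 288 in NZB:NZB hearts (-0.46 ± 0.07, adjusted p = 6.80e-05). Cyc1, the cytochrome c1 subunit, differed by -0.25 ± 0.07 with NZB mtDNA and by -0.31 ± 0.07 with C57 mtDNA (adjusted p = 0.00176; -0.90 under library totals) in the heart. It was lower in liver as well (-0.31 and -0.35, both called, the former not under library totals). Cycs was lower in heart with NZB mtDNA, 358, 326 and 429.6 against 282, 210.0 and 242 (-0.60 ± 0.13, adjusted p = 0.00175), and was not called with C57 mtDNA (-0.27; called at -0.86 under library totals) or in liver (-0.01 and -0.37).

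All 5 genes of the F1 head were lower in NZB:NZB than in BL/6J:NZB hearts, and 4 of them in NZB:C57 than in BL/6J:C57 hearts (4 and 5 under library totals). Atp5d, the delta subunit, read 384, 334 and 353 in BL/6J:C57 and 263, 274 and 279 in NZB:C57 hearts (-0.39 ± 0.08, adjusted p = 0.000911; -0.98 under library totals). Atp5e, the one F1 gene not called there (-0.06), was lower in liver on both mtDNAs: it read 153, 144 and 182 in BL/6J:NZB and 104, 110.1 and 111 in NZB:NZB livers (-0.55 ± 0.14, adjusted p = 0.0136).

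Both c-ring genes were lower in NZB:NZB hearts, Atp5g1 by a log2 difference of -0.38 ± 0.08 and Atp5g3 of -0.27 ± 0.10. In hearts with C57 mtDNA Atp5g1 was called (-0.28) and Atp5g3 was not (-0.16), and under library totals both were (-0.87 and -0.75). In the livers with C57 mtDNA Atp5g3 was called (-0.44) and Atp5g1 was not (-0.27); the difference between the 2 genes was not tested.

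Among the stalk and membrane subunits, Atp5l and Atp5k had the largest differences in hearts with NZB mtDNA. Atp5l read 361, 355 and 322 in NZB:NZB hearts, all below the lowest BL/6J:NZB heart (-0.74 ± 0.10, adjusted p = 2.92e-05). For Atp5k the difference was -0.61 ± 0.09 (adjusted p = 4.52e-05). With C57 mtDNA these heart differences were -0.13 and -0.17 and were not called, while under library totals they were called at -0.72 and -0.75. Atp5h, the d subunit of the stalk, had the smallest p in livers with C57 mtDNA, 304, 239.6 and 221 in BL/6J:C57 and 175, 167 and 156 in NZB:C57 (-0.61 ± 0.11, adjusted p = 0.00118). Atp5mpl, the proteolipid subunit (-0.07, -0.30, -0.16 and 0.26), and Atp5s (-0.33 to -0.14) were called by limma in none of the 4 nuclear comparisons on the authors' scale, and neither was Atp5l-ps2 in the heart. In hearts with C57 mtDNA edgeR called Atp5s (-0.30), and under library totals all 3 were called lower (-0.33 for Atp5mpl, -0.83 for Atp5s and -0.57 for Atp5l-ps2). On the authors' scale Atp5mpl lay the other way there, at 187, 194 and 195 in BL/6J:C57 and 228, 220.4 and 241 in NZB:C57 hearts, which do not overlap.

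Atpif1 was called higher with the NZB nucleus in both livers, and no other member was called higher in these fits; in hearts with C57 mtDNA 2 members were when only the 6 libraries compared were fitted. Its livers read 16.5, 11.9 and 11.7 in BL/6J:C57 pools, 12.2, 11.9 and 13.9 in BL/6J:NZB pools, 29.0, 28.8 and 26.5 in NZB:NZB and 26.3, 22.9 and 19.1 in NZB:C57. Every NZB-nuclear liver was above every BL/6J liver, by 1.09 ± 0.14 with NZB mtDNA (adjusted p = 8.11e-05, limma) and by 0.73 ± 0.14 with C57 mtDNA (adjusted p = 0.00196). NZB:C57 liver 1, which held almost no cardiomyocyte marker RNA, read 26.3. The gene lies at chr4:132530555-132533659 (GRCm38). In the heart it read 96.9, 86.3 and 86.2 in NZB:NZB and 95.8, 110.1 and 98.0 in NZB:C57, where the difference was 0.00 ± 0.09 with NZB mtDNA, not called, and 0.58 ± 0.09 with C57 mtDNA (adjusted p = 3.69e-05). Under library totals the latter was -0.00447, with the median of all genes at -0.53. Per 100 of Atp5b, which needs no scaling, Atpif1 was 0.7261 to 1.235 in BL/6J livers and 1.502 to 1.953 in NZB-nuclear livers. The same ratio was 1.185 to 1.86 in BL/6J hearts and 2.175 to 2.557 in NZB-nuclear hearts, again without overlap. In these hearts Atp5b itself was lower with the NZB nucleus (edgeR: -0.35 with NZB and -0.30 with C57 mtDNA). On the authors' scale Atpif1 had means of 89.81 in BL/6J:NZB and 89.80 in NZB:NZB hearts, and Atp5b 5071.5 and 4051.5. With NZB mtDNA the heart ratio therefore differed through Atp5b on that scale. The mtDNA change of Atpif1 on the NZB nucleus differed between heart and liver by 0.47 ± 0.17 (adjusted p = 0.0455, limma). It was the one member called there, against 23.9% of 14968 genes, and with edgeR it was not called. Under library totals 23 members were called there, all lower, with the median of all genes at -0.41.

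The nuclear genes of complexes I and IV were counted in the same comparisons, where the shares of all genes are those given above. Of 36 genes of complex I, 33 were lower with the NZB nucleus in hearts with NZB mtDNA, 21 in hearts with C57 mtDNA, 16 in livers with NZB mtDNA and 32 in livers with C57 mtDNA, with 0 higher in each. Of 15 complex IV genes in heart, 12 were lower and 0 higher with NZB mtDNA, while 1 was lower and 3 were higher with C57 mtDNA, where the sum of the list was 7184 to 7627 in NZB:C57 and 6525 to 6679 in BL/6J:C57. Of 13 in liver, 5 and 10 were lower and 1 higher in each. Under library totals 36 complex I genes were lower in hearts with C57 mtDNA, and 12 complex IV genes were lower and 3 higher. The median of all genes was below 0 there as well. Between BL/6J hearts the same lists had 2 higher genes each, Ndufa5 (0.46 ± 0.09) and Ndufs6 (0.38 ± 0.08) of complex I and Cox7c (0.61 ± 0.13) and Cox7b (0.41 ± 0.09) of complex IV. In NZB:C57 against NZB:NZB hearts 4 complex IV genes were higher, led by the muscle isoforms Cox8b (2.13, or 1.43 under library totals) and Cox6a2 (1.48, or 0.78), where no member of the present set was called.

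Genes that build or serve these complexes gave the following counts, beside 13.6% of all genes lower and 15.5% higher in NZB:NZB than in BL/6J:NZB hearts. Of 6 ATP synthase assembly factors, 4 were lower there. Of the 4 complex II and 7 complex III assembly factors, 1 and 2 were lower in those hearts, and 1 of the latter was higher. Among 13 coenzyme Q synthesis genes 5 were lower and 1 higher there, and Coq10a was higher in NZB:C57 than in NZB:NZB hearts (0.22 ± 0.07) and lower under library totals (-0.48). Etfdh, which feeds electrons from fatty acid oxidation into coenzyme Q, was higher in the same hearts (0.20 ± 0.06) and also lower under library totals (-0.50), the one called of 7 such dehydrogenases. Between NZB:C57 and NZB:NZB hearts 13% of 13803 genes were called higher and 2.89% lower, and 1 of 7 is near the former share. Slc25a4, the heart and muscle exchanger of ATP and ADP, was higher in NZB:C57 hearts (1.10 ± 0.08, or 0.39 under library totals) and lower in NZB:C57 livers (-1.22 ± 0.23). The summed cardiomyocyte markers were higher in these hearts. In the livers they overlapped, at 0.5487, 136.4 and 108.2 in NZB:C57 and 150.2, 81.58 and 43.58 in NZB:NZB. The part of this marker RNA in the Slc25a4 differences was not tested. Of 8 regulators, Perm1, a coactivator of muscle, was called in NZB:C57 hearts (1.19 ± 0.08, or 0.49 under library totals), and of 8 genes of the cristae organising system 4 were lower in NZB:NZB than in BL/6J:NZB hearts.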

How the data were processed

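Polyadenylated RNA (RNA integrity of at least 7.9) was sequenced by the authors on the Illumina Genome Analyzer IIx, per the labels' protocols. The deposited values are a normalised signal per gene, and per the submitters' processing notes cutadapt 1.2.1, RSEM 1.2.3, Bowtie2 2.0.6, edgeR and the build GRCm38 were used, with no role or order given. All values (100.0%) were whole multiples of 1 constant per library within 0.01 reads, so reads were recovered by division. GENCODE vM21 gave symbols to 15106 genes (98.58%). The tests had been planned for counts; since the values are normalised, log2(value + 1), which understates changes of low genes, was tested with limma's trend method (limma 3.58.1, R 4.3.3) for genes at 1 or more in at least 3 libraries, with Benjamini-Hochberg adjustment at 0.05. Fits held the 12 libraries of a tissue, or all 24 for comparisons across tissues. The limma fit within a tissue was tested on simulated data for 1 mtDNA comparison, in liver and in heart.

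The members and the 19 gene lists were chosen with earlier results of these data known. Genes named in full were up to 6 called members by p in each mtDNA comparison, up to 4 in each nuclear comparison, the 4 largest and 4 smallest heart to liver differences in BL/6J:C57, Atp5g1, Atp5g3, Cycs, Atpif1 and the Sdh genes, and up to 2 called genes of each other list in each mtDNA comparison; genes without a call that are named beside these were chosen after their values were seen. The length limits of 800 and 1200 bases were set after seeing the data. Alternatives were a pseudocount of 0.25, no filter, library totals, edgeR 4.0.16 on recovered reads, a replicate block, only the libraries compared, each library left out in turn and, chosen after seeing the data, all NZB:C57 libraries left out. Same-numbered libraries deviated together (every r above 0.1: 0.277, 0.194 and 0.226) between BL/6J:NZB and NZB:NZB livers, and in no other pair of groups compared; the labels give no link between numbers.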

Additional observations from a re-analysis of the deposited data

Results flagged for a closer look

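Between the nuclei, the mtDNA difference in the heart (NZB minus C57 mtDNA on the BL/6J nucleus, minus the same on the NZB nucleus) differed for 3 genes under the authors' normalisation, by a log2 difference of 0.61 ± 0.14 (SE; adjusted p = 0.00745, limma) for Atp5l, 0.58 ± 0.12 (adjusted p = 0.00346) for Atpif1 and 0.44 ± 0.12 (adjusted p = 0.0234) for Atp5k. This comparison called 11.2% of 13803 genes. Under library totals all 3 differences were negative and not called. For each of the 3 genes, all 3 BL/6J:NZB hearts were above all 3 BL/6J:C57 hearts. The NZB:C57 hearts, which held 8 cardiomyocyte markers at a summed 232300 to 235200, enter these differences. All 3 genes have principal transcripts shorter than 800 bases, and all 11 such members had a positive difference here. The part of length was not tested.

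Between the tissues, the mtDNA change on the NZB nucleus (NZB:C57 minus NZB:NZB) was 0.47 ± 0.17 higher in heart than in liver for Atpif1 (adjusted p = 0.0455, limma). The heart difference was 0.17 and the liver difference -0.30, and neither was called alone.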

How the results depend on the processing

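Of 2525 values of called members under the alternatives, 2391 kept their direction and their side of the threshold, 130 lost the call and 4 reversed, all 4 under library totals: -0.0045 for Atpif1 between nuclei in hearts with C57 mtDNA, and -0.063, -0.094 and -0.23 for Atp5l, Atpif1 and Atp5k in the heart difference between nuclei. The 2525 values belong to 198 called results, most of them the heart against liver calls of all 32 members in each of 4 genotypes. Those calls stayed at 31 or 32 per genotype with libraries left out in turn, so the total says little about the other comparisons. Scaling by library totals called 5 members between BL/6J hearts, 6 between NZB livers, 32 between NZB hearts, 31 between nuclei in hearts with C57 mtDNA, 26 in the heart difference between nuclei and 23 in the tissue difference on the NZB nucleus. Except between BL/6J hearts, these calls were all lower, and the median of all genes was below 0 as well. The share of all genes called under this scaling is not given here, so the counts do not set the members apart. Between BL/6J hearts, edgeR called 4 members, and no filter, the replicate block and the fit without the NZB:C57 libraries called 0. In the tissue difference on the NZB nucleus edgeR, a pseudocount of 0.25 and the replicate block called 0. Only the 6 libraries compared gave 18 between nuclei in NZB-mtDNA livers. The replicate block changed no other count of calls by over 1.5 times. Left out in turn, libraries gave 0 to 8 calls between BL/6J hearts, 3 to 8 and 10 to 23 between nuclei in livers with NZB and C57 mtDNA, 2 to 6 in the heart difference between nuclei (6 without BL/6J:NZB heart 1 or NZB:NZB heart 1), and 0 to 10 and 0 to 1 in the tissue differences on the BL/6J and NZB nucleus. Where a group keeps 2 pools, their spread is shared with the other groups. The cause of these changes was not tested, except that leaving out libraries leaves fewer samples. With 3 pools per group, differences between BL/6J hearts lie near the threshold. Atp5l-ps2 above all, and Atpif1 and Atp5s, have low values, and the +1 in the log scale shrinks their differences.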
